A study of Mus musculus with 7 samples.

Results

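The FoxO factors and the mTOR complex and brake genes are 9 genes (Foxo1, Foxo3, Foxo4, Tsc1, Tsc2, Mtor, Rptor, Rictor and Stk11) of the 55855 gene identifiers in the deposited table. They were chosen by symbol, through their Ensembl identifiers in GENCODE mouse release 21, and all 9 were found and passed the filter on low values. RNA was sequenced from mouse bone marrow hematopoietic stem cells (HSCs) in 3 libraries of Fth1fl/fl cells (control, called wild type in the series text) and 4 libraries of Fth1△/△ cells (Fth1-deleted), all from mice aged 2 months. Fth1 encodes the heavy chain of ferritin, the shell that stores iron, and according to the series text it was deleted conditionally in the blood system. The Cre line, the strain, the sort markers and whether each library is a separate mouse are not given in the sources used here, so p values measure the spread between libraries.

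FoxO proteins are transcription factors that switch on genes of cell-cycle arrest and of defence against reactive oxygen when growth factor signalling is low. Growth factors act through PI3K and the kinase AKT, which holds FoxO proteins out of the nucleus and also relieves the brake on mTOR. The kinase mTOR works in a pair of complexes: mTORC1, which contains raptor (Rptor) and drives protein and lipid synthesis, and mTORC2, which contains rictor (Rictor) and activates AKT. TSC1 and TSC2 together switch off the GTPase RHEB, the direct activator of mTORC1, and LKB1 (Stk11) works upstream through the energy sensor AMPK. In mice, loss of FoxO factors, of Tsc1 or of Stk11 in blood cells is known to bring HSCs out of rest and to exhaust them.

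Between 12058392 and 15453168 reads per library were counted on genes, read back from the values as described in the processing notes. The HSC label was compared with 10 HSC markers, none of which was at 0 throughout. Their summed level was 857 to 1387 FPKM in control and 563 to 763 FPKM in Fth1-deleted libraries, lower in every deleted library. The progenitor, neutrophil, erythroid, B cell and macrophage lists held no marker at 0 throughout either, so this cannot settle the label. FPKM are reads scaled to gene length and to library size. Fth1 itself was at 552, 659 and 638 FPKM in control libraries 1 to 3 and at 202, 333, 358 and 114 FPKM in Fth1-deleted libraries 1 to 4, lower in each deleted library than in each control (log2 difference -1.42, SE 0.33, limma adjusted p = 0.193). Ribosomal RNA took 0.014% to 0.984% of reads in control and 1.22% to 1.34% in Fth1-deleted libraries, and among controls only control 2 was near the deleted libraries. Y-linked reads were found in 1 control library (control 2) and in 3 Fth1-deleted libraries (1, 2 and 3). Control 2 also stood apart on the first principal component, at 101 where the other libraries were at -39.4 to 15.1.

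Markers of some other cell types also differed between the groups. The progenitor, macrophage, and mast cell and basophil sums were higher in every Fth1-deleted library than in every control. The sums of the other types overlapped between the groups. The summed level of 4 markers of multipotent and lymphoid-primed progenitors was 70.8 to 114 FPKM in control and 136 to 258 FPKM in Fth1-deleted libraries. The 7 neutrophil and myeloid progenitor markers summed to 153 to 359 and 168 to 576 FPKM, with Elane and Ctsg at 0 in every control library. The 7 B cell markers summed to 12.1 to 26.2 and 24.2 to 87.8 FPKM, the 5 macrophage markers to 19.0 to 29.7 and 37.8 to 115 FPKM, and the 4 mast cell and basophil markers to 0 to 12.9 and 16.0 to 44.4 FPKM. Erythroid markers (6 genes) summed to 231 to 652 and 195 to 666 FPKM, megakaryocyte markers (5 genes) to 602 to 911 and 910.1 to 1089 FPKM, and T cell markers (4 genes, Cd3e at 0 throughout) to 4.86 to 8.95 and 0 to 19.5 FPKM. The part of these differences in any result below was not tested, and in bulk RNA fewer cells of a type and less RNA per cell cannot be told apart.

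The best known DNA site of FoxO proteins is GTAAACA, which reads TGTTTAC on the other strand. It was searched on both strands in the RefSeq promoter windows of GRCm38.p6, each from 250 bases before to 50 bases after the gene start. Of all 32851 windows, 3.65% held it. Of the 8 windows of members 1 held it, that of Stk11, and of the 31 windows of FoxO targets 4 did (12.9%), those of Bbc3, Bcl2l11, Sesn1 and Trim63. In the other lists it was found in 2 of 12 windows of mTOR complex subunits (Mapkap1) and 2 of 32 of PI3K and AKT genes (Akt1 and Pik3cg). The remaining 4 lists held none. The match in Stk11 begins 16 bases after the RefSeq start (chr10:80115801-80115827, plus strand), that in Sesn1 22 bases after it (chr10:41810586-41810612, plus strand), that in Bbc3 167 bases before it (chr7:16310084-16310110, plus strand) and that in Bcl2l11 227 bases before it (chr2:128125801-128125827, plus strand). These 4 are shown because their genes are expressed and their levels are given below; capitals mark the match, and it describes letters, not binding.
Stk11: gcgcagggcgGTAAACAagatggcggc
Sesn1: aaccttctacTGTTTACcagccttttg
Bbc3: ctggcgggttTGTTTACaaacaatggg
Bcl2l11: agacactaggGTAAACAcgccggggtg

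No member passed the threshold between Fth1-deleted and control HSCs: with limma on log2(FPKM + 1), 0 of 9 rose and 0 of 9 fell at a Benjamini-Hochberg adjusted p under 0.05, where 0.0574% of the 13948 genes tested were called, 0.0287% higher and 0.0287% lower. Adjusted p ran from 0.444 to 0.896. With limma-voom on the recovered reads, 0 of 9 were called as well. At an unadjusted p under 0.05 there was 1 member, Foxo4, by either method, against 9.83% of all genes in the limma fit on log2(FPKM + 1). Foxo4 was also the only member whose groups did not overlap, against 9.65% of all genes (4.1% higher and 5.55% lower in Fth1-deleted libraries), so neither count of 1 in 9 stands out from the background. The log2 difference was negative for 7 of 9 members, with a median of -0.35, and for 51.3% of all genes, with a median of -0.017.

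**Figure D1:**
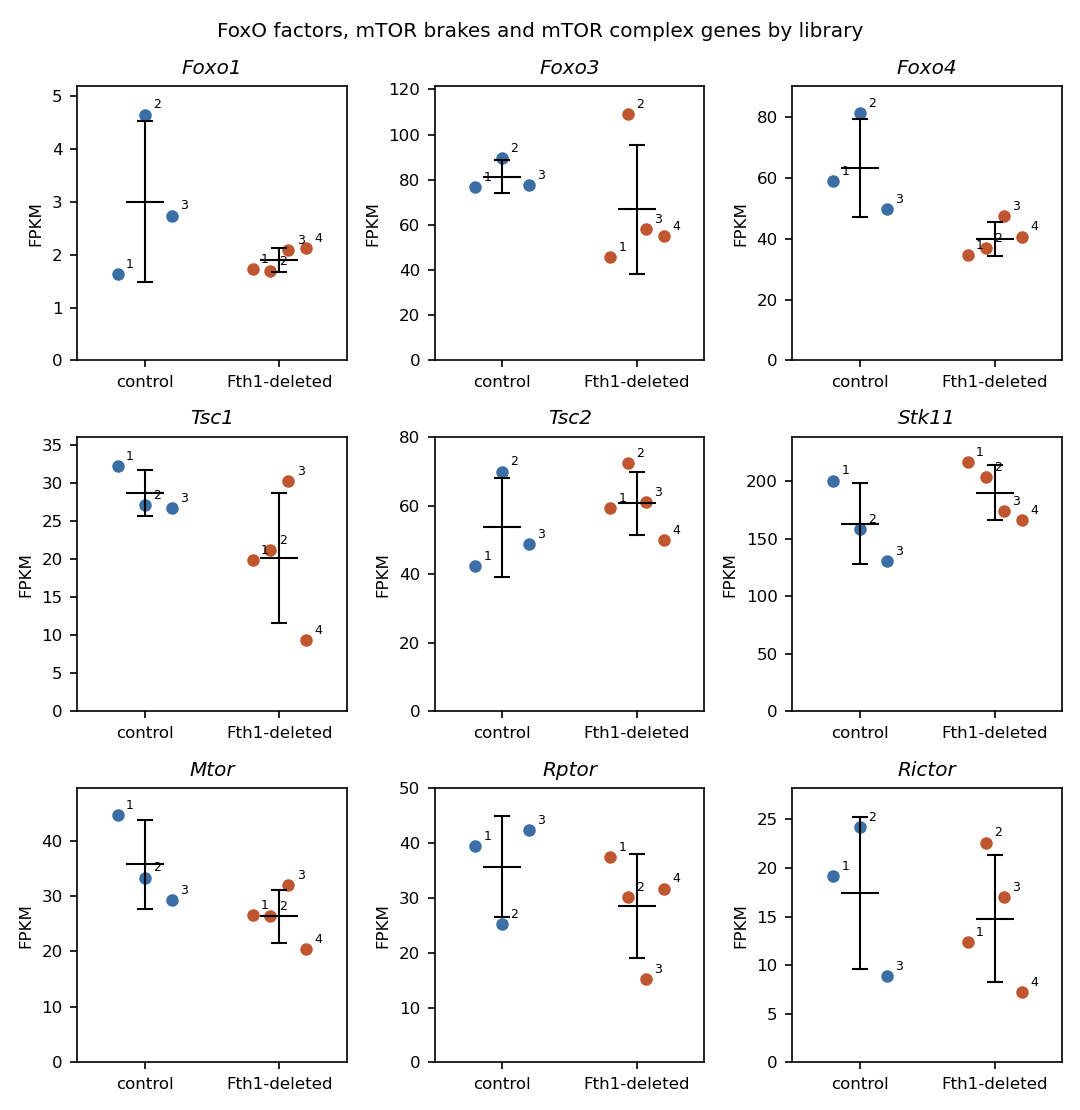
FPKM of the 9 members in each library (vertical axes, from 0) for 3 control and 4 Fth1-deleted libraries. Points are libraries with their replicate number, and the bar and whiskers are the mean and SD; only for Foxo4 do all Fth1-deleted libraries (34.5 to 47.4) lie below all controls (49.8 to 81.2).

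Among the FoxO members, Foxo3 and Foxo4 made up nearly all of the summed FPKM, and Foxo1 was scarce. The size of this gap depends on the mean transcript lengths behind FPKM, 8665 bases for Foxo1, 2820 for Foxo3 and 1846 for Foxo4. In reads, which are not divided by length, Foxo1 was also the lowest of them in every library. Foxo3 (ENSMUSG00000048756, chromosome 10, 42181841 to 42276755, minus strand, GRCm38), the family member most tied to HSC maintenance in mice, was at 76.7, 89.7 and 77.6 FPKM in control libraries 1 to 3 and at 45.9, 109, 58.0 and 54.9 FPKM in Fth1-deleted libraries 1 to 4. These values rest on 2001 to 4194 reads per library. The groups overlapped through Fth1-deleted 2 alone, which was the highest of all libraries while the other 3 deleted libraries lay below every control. The log2 difference was -0.35 (SE 0.28, 95% interval -0.97 to 0.26, limma adjusted p = 0.709). Without Fth1-deleted 2 it was -0.61 (SE 0.17, limma adjusted p = 0.415), and without Fth1-deleted 1, the lowest library, it was -0.20 (SE 0.29, limma adjusted p = 0.867). With the ribosomal RNA covariate it was -0.59 (SE 0.54).

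Foxo4 (ENSMUSG00000042903, chromosome X, 101254528 to 101260873, plus strand) was at 59.0, 81.2 and 49.8 FPKM in control and at 34.5, 37.0, 47.4 and 40.7 FPKM in Fth1-deleted libraries, from 929 to 2255 reads. Each deleted library was below each control, and the means were 63.3 ± 16.1 FPKM (SD, n = 3) and 39.9 ± 5.60 FPKM (SD, n = 4), the latter 63.0% of control. This log2 difference of -0.63 (SE 0.25, 95% interval -1.17 to -0.10, limma adjusted p = 0.444) did not pass the threshold. Among the 4 libraries with Y-linked reads, Foxo4 was at 81.2 FPKM in the control and at a mean of 39.6 FPKM in the 3 deleted libraries, and among the 3 without them at a mean of 54.4 FPKM in 2 controls and at 40.7 FPKM in the deleted library. Without control 2, the highest library, the difference on the log2 scale was -0.44 (SE 0.19, limma adjusted p = 0.595). With the share of ribosomal RNA as a covariate it was -1.24 (SE 0.39, adjusted p = 0.251).

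Foxo1 (ENSMUSG00000044167, chromosome 3, 52268336 to 52353221, plus strand) was at 1.63, 4.65 and 2.74 FPKM in control and at 1.73, 1.69, 2.09 and 2.12 FPKM in Fth1-deleted libraries, from 196 to 606 reads. Control 2 was the highest and control 1 the lowest of all 7 libraries, so the deleted libraries lay inside the control range. For Foxo1 the log2 difference was -0.39 (SE 0.61, 95% interval -1.72 to 0.93, limma adjusted p = 0.853), with -0.11 without control 2, -0.66 without control 1 and -1.24 (SE 1.00) with the ribosomal RNA covariate. Of the summed FPKM of the FoxO members, Foxo1 took 1.15% to 2.65%, Foxo3 51.1% to 73.9% and Foxo4 25.0% to 46.3% over the 7 libraries. Both the highest Foxo3 share and the lowest Foxo4 share were in Fth1-deleted 2. Foxo1 shares 674 exon bases with the antisense gene Gm20402, which was at 0 in every library.

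Of the brakes on mTORC1, Tsc1 had a negative and Tsc2 and Stk11 a positive difference, none of which passed the test. Tsc1 (ENSMUSG00000026812, chromosome 2, 28641228 to 28691167, plus strand), which stabilises the TSC complex, was at 32.2, 27.1 and 26.7 FPKM in control and at 19.9, 21.2, 30.2 and 9.38 FPKM in Fth1-deleted libraries. Only Fth1-deleted 3 reached the control range, and Fth1-deleted 4 had 578 reads where the other libraries had 1201 to 1862. For Tsc1 the log2 difference was -0.59 (SE 0.38, 95% interval -1.41 to 0.23, limma adjusted p = 0.645), and -0.28 without Fth1-deleted 4.

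Tsc2 (ENSMUSG00000002496, chromosome 17, 24595816 to 24632630, minus strand), the subunit that acts on RHEB, was at 42.5, 70.0 and 48.8 FPKM in control and at 59.4, 72.5, 61.1 and 50 FPKM in Fth1-deleted libraries. Control 2 lay among the deleted libraries, and the other controls lay below all of them. A log2 difference of 0.19 (SE 0.24, 95% interval -0.34 to 0.72, limma adjusted p = 0.809) was found for Tsc2. It was 0.40 without control 2 and 0.043 without control 1, and -0.38 with the ribosomal RNA covariate. Tsc2 shares 693 bases (7.2% of its exon bases) with Pkd1, which lies on the opposite strand and had a mean of 65.2 FPKM. Whether reads were counted by strand is not stated in the sources used here, so the Tsc2 level is uncertain to that extent.

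Stk11 (ENSMUSG00000003068, chromosome 10, 80115803 to 80130682, plus strand) was the most abundant member in every library, at 200.2, 158 and 130.1 FPKM in control and at 216, 203, 174 and 166 FPKM in Fth1-deleted libraries. The groups overlapped through control 1, and the log2 difference was 0.23 (SE 0.19, 95% interval -0.19 to 0.66, limma adjusted p = 0.720). Its value was 0.39 without control 1 and 0.084 without control 3. Stk11 carries the GTAAACA match shown above, and shares 232 bases (5.07% of its exon bases) with Cbarp on the opposite strand.

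Of mTOR and the subunits that define its complexes, all 3 had negative differences and none passed the test. Mtor (ENSMUSG00000028991, chromosome 4, 148448611 to 148557683, plus strand), the kinase itself, was at 44.6, 33.3 and 29.2 FPKM in control and at 26.5, 26.4, 32.0 and 20.4 FPKM in Fth1-deleted libraries. Fth1-deleted 3 alone reached the control range. Its log2 difference was -0.42 (SE 0.28, 95% interval -1.03 to 0.19, limma adjusted p = 0.662), and -0.25 without control 1, the highest library.

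Rptor (ENSMUSG00000025583, chromosome 11, 119602905 to 119899576, plus strand), the scaffold that brings substrates to mTORC1, was at 39.5, 25.3 and 42.4 FPKM in control and at 37.5, 30.1, 15.2 and 31.7 FPKM in Fth1-deleted libraries. Fth1-deleted 3 was the lowest, with 537 reads against 1053 to 1600 elsewhere. The Rptor difference on the log2 scale was -0.35 (SE 0.34, 95% interval -1.10 to 0.40, limma adjusted p = 0.759). It was -0.082 without Fth1-deleted 3, -0.21 without control 3, -0.57 without control 2 and 0.39 with the ribosomal RNA covariate.

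Rictor (ENSMUSG00000050310, chromosome 15, 6708379 to 6800401, plus strand), the defining subunit of mTORC2, was at 19.2, 24.2 and 8.89 FPKM in control and at 12.4, 22.6, 17.0 and 7.21 FPKM in Fth1-deleted libraries. It was 3.36-fold apart between its highest and lowest library, and each group held a library with under 500 reads (466 in control 3 and 464 in Fth1-deleted 4). For Rictor, a log2 difference of -0.22 (SE 0.46, 95% interval -1.23 to 0.79, limma adjusted p = 0.896) was found, and one of 0.055 without control 2 or 0.057 without Fth1-deleted 4. The other libraries left out in turn gave -0.62 to -0.10, and the ribosomal RNA covariate gave -1.01 (SE 0.85).

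**Figure D2:**
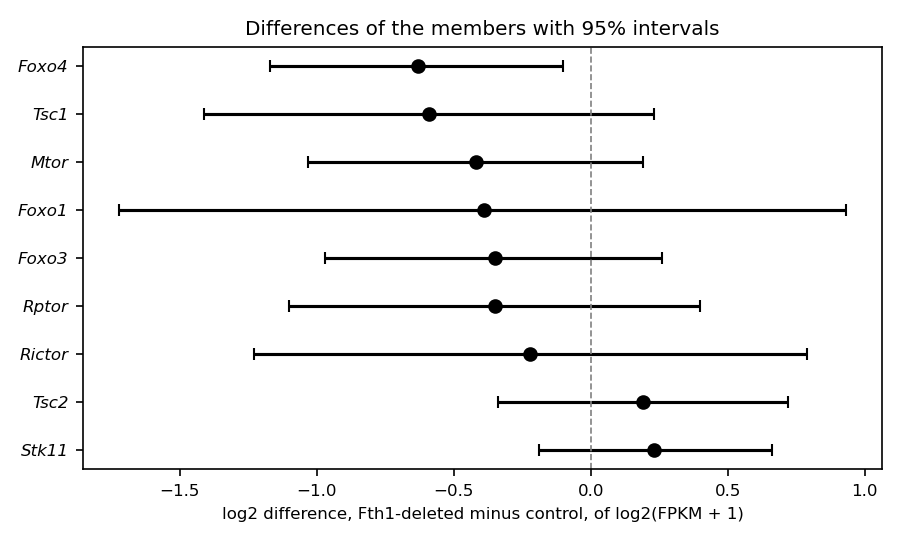
Difference in log2(FPKM + 1) of each member between the groups (Fth1-deleted minus control), with 95% intervals from the limma fit across all 13948 genes (3 against 4 libraries). Only the interval of Foxo4 (-1.17 to -0.10) lies off the dashed line at 0, before any adjustment for the number of genes, and after it the adjusted p is 0.444.

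The intervals show what sizes the data allow. For Stk11 they run from 0.876-fold to 1.58-fold of the control level of FPKM + 1, the narrowest of the members, and for Foxo1 from 0.303-fold to 1.91-fold, the widest. The spread between libraries was wider than counting error: the coefficient of variation that counting alone would give was 1.67% for Stk11 and 5.88% for Foxo1, while the observed one between control libraries was 21.7% and 50.8%. Rictor varied by 44.8% between controls and 44.3% between Fth1-deleted libraries, against 3.21% from counting. Foxo3 and Tsc1 differed in spread between the groups, at 8.93% and 10.7% among controls and 42.7% and 42.3% among Fth1-deleted libraries. The difference in spread was not tested.

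In level per gene length, the members kept a stable order at both ends. The length is a mean over annotated transcripts, and the order between genes depends on it. In control 1, for example, Tsc1 had 1862 reads and Tsc2 1194, but Tsc2 was higher in FPKM. Stk11 had a mean of 178 FPKM over all 7 libraries and was above Foxo3 (73.1 FPKM) in 7 of 7. Foxo3 was above Tsc2 (57.7 FPKM) in 5 of 7 libraries. Tsc2 was above Foxo4 (49.9 FPKM) in 4 of 7, all of them Fth1-deleted libraries, while Foxo4 was higher in every control. The margin was small in control 3, at 49.8 FPKM for Foxo4 and 48.8 FPKM for Tsc2. This change of order was seen once the values were known and was not tested. Foxo4 was above Rptor (31.7 FPKM) in 6 of 7. Rptor and Mtor (30.4 FPKM) changed places within both groups, with Rptor higher in 4 of 7. Mtor was above Tsc1 (23.8 FPKM) in 7 of 7, Tsc1 above Rictor (15.9 FPKM) in 6 of 7, and Rictor above Foxo1 (2.38 FPKM) in 7 of 7.

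Ratios within a library do not depend on its scaling, though their height depends on the gene lengths used. Those given here overlapped between the groups. Rptor over Rictor, the balance of the complex-defining subunits at the RNA level, was 2.06, 1.05 and 4.77 in the controls and 3.03, 1.33, 0.892 and 4.39 in the Fth1-deleted libraries. It was highest in control 3 and Fth1-deleted 4, the libraries with the least Rictor. Tsc2 over Tsc1 was 1.32, 2.58 and 1.83 in the controls and 2.98, 3.42, 2.02 and 5.34 in the Fth1-deleted libraries, where only Fth1-deleted 3 reached the control range. Foxo3 over Foxo4 was 1.30, 1.10 and 1.56 in the controls and 1.33, 2.96, 1.23 and 1.35 in the Fth1-deleted libraries, and highest in Fth1-deleted 2. These ratios were not tested, since the members were chosen with results known.

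**Figure D3:**
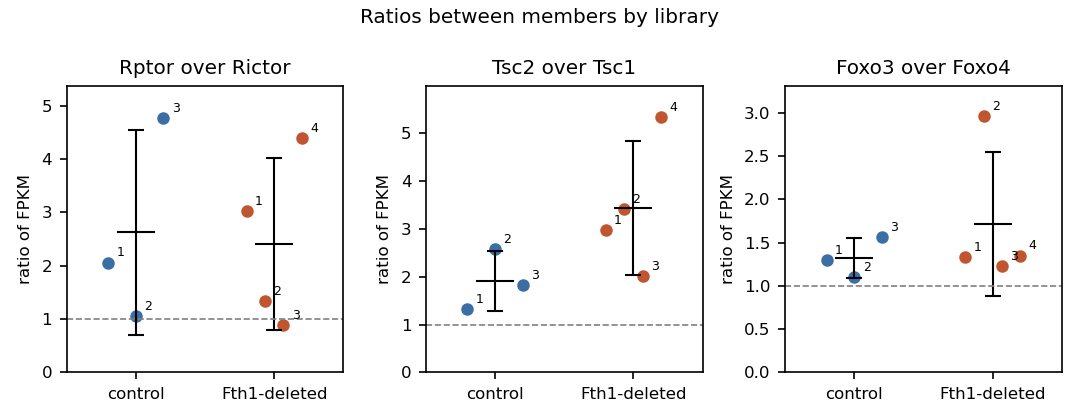
Ratios of FPKM between pairs of members in each library (vertical axes, from 0, dashed line at 1), for 3 control and 4 Fth1-deleted libraries with replicate numbers, mean and SD. Rptor over Rictor spans 0.892 to 4.77 with no separation of the groups, and Tsc2 over Tsc1 reaches 5.34 in Fth1-deleted 4.

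Profiles close to those of Foxo3 and Mtor were found by the root mean square difference of log2(FPKM + 1) values centred on each gene's mean over the 7 libraries, among 9489 genes. Those nearest to Foxo3 were Ndst2 (0.139), Zfp260 (0.144) and Smg6 (0.148). Like Foxo3, Ndst2 was high in Fth1-deleted 2 (52.7 FPKM) and low in the other 3 deleted libraries (22.8 to 31.9 FPKM), against 36.5 to 51.4 FPKM in control. Those nearest to Mtor were Hectd4 (0.0928), Edc4 (0.0999) and Sos1 (0.105). With so few libraries and so many genes, close profiles are a description only.

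The pathway around the members was read from 7 further lists of 143 genes, of which 135 passed the filter. None of the 135 rose or fell at an adjusted p under 0.05 in limma. An unadjusted limma p under 0.05 was found for 14, against 9.83% of all genes. For 13 the groups did not overlap, against 9.65% of all genes, so neither count stands out from the background. With any 1 library left out, none of the 2 genes taken from each list passed either. Genes named below are the 2 with the smallest p of each list, and any other is said to have been picked once its values were known.

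**Figure D4:**
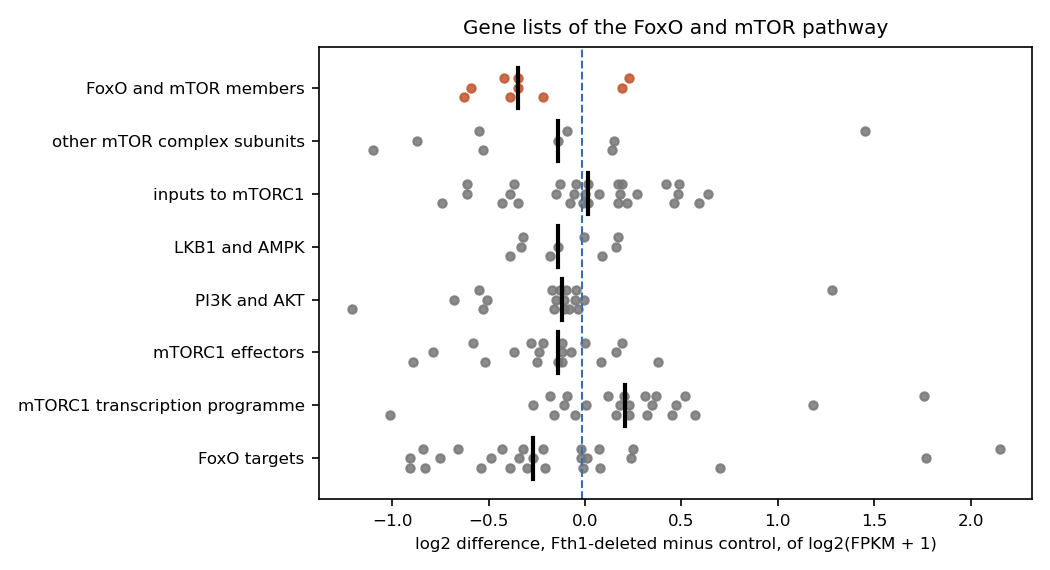
Differences in log2(FPKM + 1) between the groups (Fth1-deleted minus control) of the tested genes of each list (points), with the median of the list (black bar) and of all 13948 genes tested (dashed line, -0.017). The 9 members have a median of -0.35, the FoxO targets -0.27 and the mTORC1 transcription programme 0.21.

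FoxO targets were mostly on the lower side. Of 30 genes 27 were tested, 0 rose and 0 fell, 19 differences were negative, and the median was -0.27. Pik3ip1, an inhibitor of PI3K, was at 134, 127 and 199 FPKM in control and at 75.1, 127, 79.1 and 83.2 FPKM in Fth1-deleted libraries (log2 difference -0.75, SE 0.24, limma adjusted p = 0.362).

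Further FoxO targets were picked once their values were known. Insr, the insulin receptor, was tight within groups, at 25.9, 25.2 and 24.9 FPKM in the controls and 17.2, 19.8, 19.0 and 15.5 FPKM in the deleted libraries, with no overlap (log2 difference -0.49, SE 0.29, limma adjusted p = 0.621). Rbl2, the pocket protein p130 of resting cells, was at 58.1 ± 14.4 FPKM (SD, n = 3) and 31.0 ± 9.83 FPKM (SD, n = 4), with a log2 difference of -0.91 (SE 0.30, limma adjusted p = 0.377). Of enzymes against reactive oxygen in the list, Sod2 was at 50.6 ± 7.12 and 60.2 ± 10.3 FPKM and Cat at 69.1 ± 2.99 and 82.8 ± 12.5 FPKM, with log2 differences of 0.24 (SE 0.23) and 0.25 (SE 0.20) and limma adjusted p of 0.755 and 0.714. Prdx3, a mitochondrial peroxidase, had a log2 difference of 0.079. Cdkn1a, the cell-cycle inhibitor p21, was at 4.14, 2.08 and 0 FPKM in control and at 18.8, 6.83, 4.66 and 5.04 FPKM in Fth1-deleted libraries, higher in each deleted library than in each control (log2 difference 1.77, SE 0.71, limma adjusted p = 0.450). Cdkn1b, which encodes the inhibitor p27, was at 31.5 ± 7.39 and 30.6 ± 2.26 FPKM.

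None of the target genes with a GTAAACA match passed the test. Sesn1, a sestrin that restrains mTORC1, was at 58.2 ± 12.8 FPKM (SD, n = 3) and 46.7 ± 7.10 FPKM (SD, n = 4), with a log2 difference of -0.30 (SE 0.25). Bcl2l11, the cell death gene Bim, was at 12.3 ± 5.93 and 6.58 ± 3.30 FPKM (log2 difference -0.83, SE 0.52). Bbc3, the cell death gene Puma, was at 35.5 ± 11.1 and 34.6 ± 8.84 FPKM (log2 difference -0.022, SE 0.31). Trim63 was at 0 in all libraries.

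In the PI3K and AKT list 18 of 19 genes were tested, 0 rose and 0 fell, 17 differences were negative, and the median was -0.12. Akt1, the most abundant of its genes and picked once its values were known, was at 459 ± 42.0 and 423 ± 24.8 FPKM, with a log2 difference of -0.11 (SE 0.15, 95% interval -0.44 to 0.21). Pik3r1, the regulatory subunit of PI3K, was at 103, 150.2 and 119 FPKM in control and at 85.5, 109.9, 83.4 and 61.8 FPKM in Fth1-deleted libraries, overlapping through Fth1-deleted 2 (log2 difference -0.55, SE 0.23, limma adjusted p = 0.477). Phlpp1, a phosphatase that removes the activating phosphate of AKT, was at 7.98, 14.9 and 17.4 FPKM in control and at 5.17, 2.09, 6.59 and 7.65 FPKM in Fth1-deleted libraries (log2 difference -1.21, SE 0.52, limma adjusted p = 0.480).

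Of the other mTOR complex subunits 9 of 9 were tested, 0 rose and 0 fell, 6 differences were negative, and the median was -0.14. Telo2, which helps assemble mTOR complexes, was at 80.1, 57.6 and 53.2 FPKM in control and at 30.0, 52.4, 44.9 and 48.9 FPKM in Fth1-deleted libraries. Its groups did not overlap, by a margin of under 1 FPKM (log2 difference -0.53, SE 0.26, limma adjusted p = 0.549). Prr5, a subunit of mTORC2, was at 6.45, 5.88 and 9.34 FPKM in control and at 5.21, 2.23, 0.704 and 4.87 FPKM in Fth1-deleted libraries, lower in each deleted library than in each control (log2 difference -1.10, SE 0.61, limma adjusted p = 0.596).

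Inputs to mTORC1 were centred on 0, with 29 of 30 tested, 0 that rose and 0 that fell, 16 positive and 13 negative differences, and a median of 0.014. Lamtor1, which anchors mTORC1 signalling at the lysosome, was at 43.1 ± 10.8 FPKM (SD, n = 3) and 64.6 ± 10.4 FPKM (SD, n = 4), a log2 difference of 0.59 (SE 0.25, limma adjusted p = 0.472). Nprl3, a subunit of the GATOR1 complex that shuts mTORC1 off when amino acids are short, was at 24.6 ± 5.07 and 15.7 ± 3.13 FPKM with no overlap (log2 difference -0.61, SE 0.33, limma adjusted p = 0.585). Lamtor1 shares 600 exon bases with Lrrc51 and Nprl3 1340 with Mpg, in both cases on the opposite strand. Rheb, picked once its values were known, was at 30.2 ± 6.84 and 36.5 ± 5.79 FPKM. In the LKB1 and AMPK list 9 of 11 genes were tested, with 0 that rose, 0 that fell and a median of -0.14. There Prkag2, a regulatory subunit of AMPK, was at 71.1 ± 26.5 and 54.4 ± 8.94 FPKM, and Strada, the partner of LKB1, at 26.2 ± 5.43 and 20.7 ± 4.54 FPKM (limma adjusted p = 0.733 and 0.747).

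Downstream of mTORC1, neither the effectors nor the transcription programme held a gene that passed. Of 19 effectors all were tested, 0 rose and 0 fell, and the median was -0.14 with 15 negative and 4 positive differences (median 0.015 with the ribosomal RNA covariate). Atg13, a subunit of the autophagy kinase that mTORC1 inhibits, was at 60.9, 31.1 and 66.1 FPKM in control and at 26.8, 25.3, 27.5 and 26.4 FPKM in Fth1-deleted libraries. All deleted libraries were below all controls, but control 2 was close to them (log2 difference -0.89, SE 0.30, limma adjusted p = 0.377). The Atg13 difference was 0.081 with the ribosomal RNA covariate and -0.70 with a term for Y-linked reads. Control 2 differs from the other controls in ribosomal RNA, Y-linked reads and the first principal component. These cannot be told apart here, and the cause was not tested. Grb10, an adaptor that dampens insulin signalling, was at 72.9, 87.3 and 89.3 FPKM in control and at 56.0, 58.9, 51.3 and 65.1 FPKM in Fth1-deleted libraries, again with no overlap (log2 difference -0.52, SE 0.20, limma adjusted p = 0.444).

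The transcription programme of mTORC1, of 25 genes, had 24 tested, 0 that rose, 0 that fell, 17 positive differences and a median of 0.21. Hk2, the first enzyme of glycolysis, was at 11, 14.6 and 17.1 FPKM in control and at 18.4, 43.3, 33.2 and 43.9 FPKM in Fth1-deleted libraries. Each deleted library was above each control, Fth1-deleted 1 only just (log2 difference 1.18, SE 0.36, limma adjusted p = 0.339). Mthfd2, a mitochondrial enzyme of one-carbon metabolism, was at 23.2, 16.6 and 3.65 FPKM in control and at 56.5, 19.6, 58.4 and 46.2 FPKM in Fth1-deleted libraries, overlapping through Fth1-deleted 2 (log2 difference 1.76, SE 0.55, limma adjusted p = 0.345). Asns, asparagine synthetase, a target of the same factor ATF4 and picked once its values were known, had the opposite sign, at 29.1 ± 5.90 and 15.7 ± 9.82 FPKM (log2 difference -1.01, SE 0.44, limma adjusted p = 0.489).

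**Figure D5:**
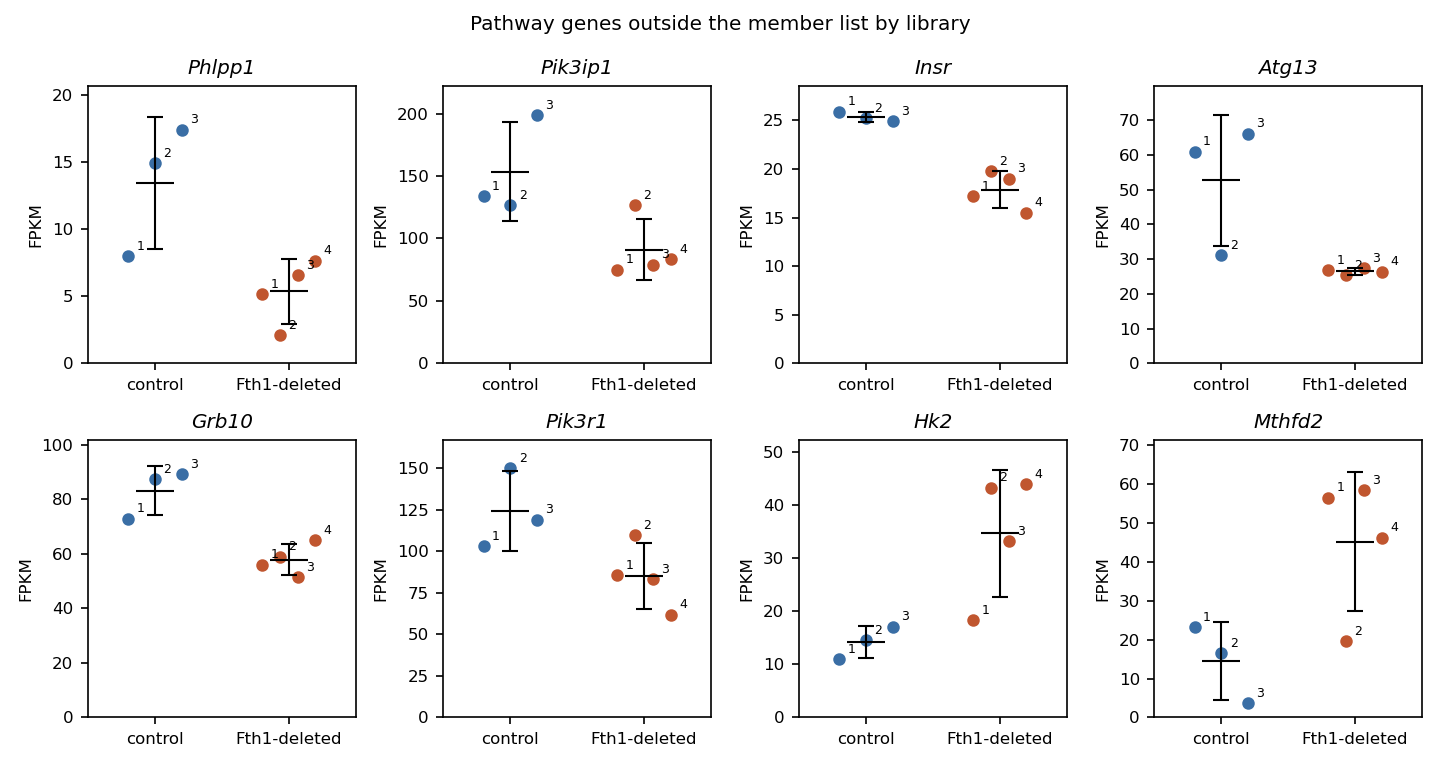
FPKM in each library (vertical axes, from 0) of 8 pathway genes named in the text, for 3 control and 4 Fth1-deleted libraries with replicate numbers, mean and SD. Hk2 is higher, and Phlpp1, Insr, Atg13 and Grb10 lower, in every Fth1-deleted library than in every control library. So is Pik3ip1 lower, but by less than the rounding, since Fth1-deleted 2 and control 2 are both at 127 FPKM. None of the 8 passes the adjusted threshold.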

How the data were processed

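The authors deposited FPKM, computed per gene from its length and its read number according to the series text; reads were aligned to GRCm38 with HISAT2 2.0.4 and counted with HTSeq 0.9.1, per the submitters' processing notes. The annotation release, the strand setting and any filter are not given in the sources used here. Of 55855 identifiers, 55480 matched GENCODE mouse release 21, which gave symbols and positions. FPKM times the rounded mean transcript length fell on whole reads within 0.05 for 98.9% to 99.4% of values under 50 reads, which gave the depth.

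Genes whose FPKM averaged 1 or more (13948) were tested as log2(FPKM + 1) with limma 3.58.1 in R 4.3.3 (intensity trend, two-sided, no covariate), with Benjamini-Hochberg adjustment over all of them and a threshold of 0.05. Fold changes on this scale understate changes of low genes. Read numbers cover counting error only, since PCR copies are not independent. Named genes are the 9 members, Fth1, the 2 genes with the smallest p in each list without a call (up to 4 called ones otherwise), and the 3 profiles most like Foxo3 and Mtor among genes averaging 5 FPKM or more. Some results that this rule covers are not reported here. The members and lists were chosen with earlier results of these data known. Overlaps of exons were taken from the annotation, and near copies of at least 95% identity over 200 bases by BLAST. Pseudocounts of 0.1 and 5, filters, scalings, covariates, weights, limma-voom, a block and each library left out were tried as alternatives.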

Additional observations from a re-analysis of the deposited data

Results flagged for a closer look

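Of the 30 genes examined on a log scale, 1 had a library far from the others within the 4 Fth1-deleted libraries. Nprl3 was at 11.1 FPKM in Fth1-deleted 3 and at 17.7, 16.6 and 17.5 FPKM in the other 3. On the log scale this was a gap of 0.870 of the whole range. The count depends on the scale. In FPKM, Pik3ip1 also had a library far from the others, Fth1-deleted 2 at 127 FPKM against 75.1, 79.1 and 83.2 FPKM. Chance flags about 1 in 20 such groups.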

How the results depend on the processing

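No member passed the adjusted threshold in any of 20 alternatives, 7 of which leave out a library. The count of genes called over the whole table, 8, was less stable: it was 0 without a filter, 17 without a trend, 32 with the ribosomal RNA covariate, 17 with the Y-linked term and 5 with limma-voom, and 0 to 4 with 1 library left out (4 without control 2, 0 without any other). Where 0 genes were called in all, the lack of a called member says nothing of stability. Foxo1, Foxo3, Foxo4, Tsc1, Mtor and Stk11 kept their direction in every alternative run. Tsc2 turned to -0.38 with the ribosomal RNA covariate and to -0.0032 with the Y-linked term, Rptor to 0.39 and Atg13 to 0.081 with the ribosomal RNA covariate, and Rictor to 0.055 without control 2 and 0.057 without Fth1-deleted 4 (-0.62 to 0.057 with 1 library left out); the cause was not tested. The share of ribosomal RNA and the group are largely confounded, with control 2 the only control at a high share. With the replicate number as a block, 0 genes were called and Rictor was at 0.057. Deviations of same-numbered libraries from their group means correlated at 0.009, 0.0609 and -0.037 across genes. These values show no pairing by number, but with so few libraries they cannot exclude it. No scaling moved the median of all genes by over 0.1.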
